A study of Mus musculus with 2 samples.

Results

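Immunity-related GTPases are interferon-induced proteins of mouse cells, and 7 of them, Iigp1, Irgm1, Irgm2, Igtp, Tgtp1, Tgtp2 and Ifi47, were followed here among the 31253 genes of the count tables. The 7 were chosen by symbol, with their levels and their ratio between the libraries already known from these same cells, so those values describe the family and carry no test. They were read in Cd45+ immune cells sorted from subcutaneous B16-F10 tumors, a mouse melanoma line, at day 10 after injection of 200000 tumor cells. Hosts were young adult female mice of strain C57BL/6, either Irg1+/+ or labelled Irg1-/-, a line kept on C57BL/6J in which the deletion of Irg1 (Acod1, the enzyme that makes itaconate) is not limited to a cell type by design. Each genotype gave 1 library, made from 100 mm3 pieces of the tumors of 3 mice pooled before digestion, so the difference between genotypes cannot be told apart from the difference between these pools of mice. Every interval given here is a 95% interval for counting error alone and does not hold the spread between animals.

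The family serves cell-autonomous defense, in which interferon makes a cell able to attack the compartment of an intracellular microbe. The effector members, Iigp1, Tgtp1, Tgtp2 and Ifi47, load onto the vacuoles of parasites and bacteria, which can then break open. The regulatory members, Irgm1, Irgm2 and Igtp, sit on the membranes of the host cell and hold the effectors in their inactive form there, and the autophagy proteins that conjugate Atg8 family members help to place effectors on the foreign vacuole. Transcription of the family is driven mainly by interferon gamma, with input from type I interferon.

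In the annotation of the mouse build GRCm38, 6 members, all but Iigp1, lie on chromosome 11. Igtp, at chr11:58199556-58207591 on the plus strand, and Irgm2, at chr11:58199618-58222782 on the same strand, have gene models that share 7974 bases. Irgm1 (chr11:48861968-48871683, minus strand), Tgtp1 (chr11:48985327-48994172, minus strand), Tgtp2 (chr11:49057194-49064206, minus strand) and Ifi47 (chr11:49076587-49096974, plus strand) form a second group on the same chromosome. The start regions of these 6 were found among the RefSeq promoter windows of GRCm38.p6, which run from 250 bases before to 50 bases after a gene's start. They were searched on both strands for GAAA, any 2 bases and GAAA again, a form of the interferon-stimulated response element (ISRE), and for TTCNNNGAA, a form of the gamma-activated site (GAS), a promoter element of the interferon gamma response. ISRE letters were found in 3.44% of all 32851 windows of that length, GAS letters in 8.30%, and both in 0.454%. The windows of Irgm2, Igtp, Tgtp1 and Tgtp2 held both, with 2 bases between them. The stretches are shown because all 4 carry the same arrangement, although the genes differ in where they are expressed, and capitals mark the GAS and ISRE letters.
Irgm2 (chr11:58214882-58214942, plus strand): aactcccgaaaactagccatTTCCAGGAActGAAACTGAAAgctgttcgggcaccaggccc
Igtp (chr11:58199491-58199551, plus strand): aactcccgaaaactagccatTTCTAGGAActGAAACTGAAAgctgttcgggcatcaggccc
Tgtp1 (chr11:48992294-48992354, minus strand): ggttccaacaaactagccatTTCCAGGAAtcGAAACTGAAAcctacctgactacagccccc
Tgtp2 (chr11:49064253-49064313, minus strand): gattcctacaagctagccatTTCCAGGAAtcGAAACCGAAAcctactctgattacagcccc

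Counted from the RefSeq start of each window, the first capital stands 75 bases before that of Irgm2, 45 before that of Igtp, 88 before that of Tgtp1 and 81 before that of Tgtp2. The RefSeq starts of Irgm2, Tgtp1 and Irgm1 lie inside the longer gene models given above, so these stretches do too. Once this arrangement had been seen, the GAS letters, any 2 bases and the ISRE letters in 1 run were searched in all windows and were found in 5 of 32851 (0.0152%): these 4 and Gm12185, another immunity-related GTPase gene. Irgm1 held 2 overlapping ISRE matches and no GAS letters in its window, shown with the ISRE letters in capitals.
Irgm1 (chr11:48871415-48871470, minus strand): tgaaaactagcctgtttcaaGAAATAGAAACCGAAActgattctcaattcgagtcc

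Neither set of letters was in the Ifi47 window, which says nothing of sequence outside it. Start regions of family genes on chromosome 18, Iigp1 among them, were left out of this description. The Irgm2 and Igtp windows were 92.1% identical over 265 aligned bases and the Tgtp1 and Tgtp2 windows 77.5% identical over 276. These matches describe letters and were not tested against any binding data.

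The count tables held 6408 barcodes and 43617546 unique molecular identifiers (UMIs, counted molecules) in the Irg1+/+ library and 5896 barcodes and 36432067 UMIs in the library labelled Irg1-/-. After cells with mitochondrial genes at 10% of UMIs or more were left out, 6284 and 5794 cells remained, with medians of 4528 and 4594.5 UMIs, and 36 barcodes occurred in both libraries. The targeted gene did not separate the libraries as labelled: Acod1 stood at 87.8 UMIs per 1000000 UMIs (CPM, with an interval of 85.0 to 90.7) in Irg1+/+ and at 108 CPM (104 to 111) in the library labelled Irg1-/-. The classes differ in number between the libraries, and within them Acod1 went both ways. It stood at 2371 and 1916 CPM in neutrophils (log2 ratio -0.31, -0.50 to -0.11), at 177 and 139 CPM in classical monocytes (-0.35, -0.51 to -0.19) and at 87.6 and 155 CPM in other macrophages (0.82, 0.65 to 1.00). Acod1 UMIs were thus present in every class described below in both libraries. Whether the counted part of the transcript lies inside the deleted part is not given in the sources used here, so these UMIs do not check the genotype. For that reason the second library is named by its label throughout.

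Cells were gated to 20 classes by marker genes that include no member of the family and no gene used here as an interferon responder. The classical monocyte markers do hold Ly6c2 and Ifitm6, which were kept out of the clustering with the interferon-induced genes. Whether that gate follows the interferon response was not tested. Of the 12078 cells, 9901 met the gate of 1 class. The 18 classes with at least 40 cells in each library are described here. T cells were split by UMIs of Foxp3, Cd8a or Cd8b1, Cd4 and Trdc, and other T cells are those with none of these or a mix. Of the gated cells, 74.4% of classical monocytes and 97.1% of mature dendritic cells also fell in a cluster named for the same lineage, whereas no eosinophil did. No cluster took the name of eosinophils, so the clusters did not bear out this class, and the cause was not tested. UMIs are counted near the 3′ end of a transcript and are not scaled to its length, so a CPM is a count of molecules of that gene in a class.

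All 7 members were detected in both libraries, and their summed UMIs made up 977 CPM of all kept Irg1+/+ cells and 1470 CPM of all kept cells of the library labelled Irg1-/-. In the Irg1+/+ library regulatory T cells (Foxp3 with no Cd8) held most, at 2346 CPM (2255 to 2439), followed by classical monocytes at 1715 CPM (1671 to 1761). Their intervals did not overlap. Mature dendritic cells (Ccr7, Fscn1) held least, at 499.8 CPM (472 to 529), 4.69-fold below regulatory T cells. Between these ends most neighboring classes overlapped: γδ T cells (1605 CPM), neutrophils (1243), other macrophages (1239), nonclassical monocytes (1211), plasmacytoid dendritic cells (1184), CD4 T cells (1149) and type 2 conventional dendritic cells (cDC2, 1069) each overlapped the next. CD8 T cells (638 CPM, 614 to 663) and NK cells (619 CPM, 575 to 667) stood near the low end and did not differ beyond their intervals. Lymphocytes thus held both the highest and some of the lowest levels of the family, with most myeloid classes between them.

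The library labelled Irg1-/- had another class at the top. Classical monocytes led with 2511 CPM (2467 to 2556), above regulatory T cells at 2171 CPM (2046 to 2302). Nonclassical monocytes (1825 CPM), cDC2 (1753) and other macrophages (1728) followed, each overlapping the next. The lowest classes were eosinophils at 625 CPM (507 to 764), CD8 T cells at 660 (629 to 691) and NK cells at 672 (637 to 707), whose intervals overlapped. Melanoma cells that passed the sort, 54 and 7 cells, stood at 917 and 318 CPM and are not compared further.

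**Figure D1:**
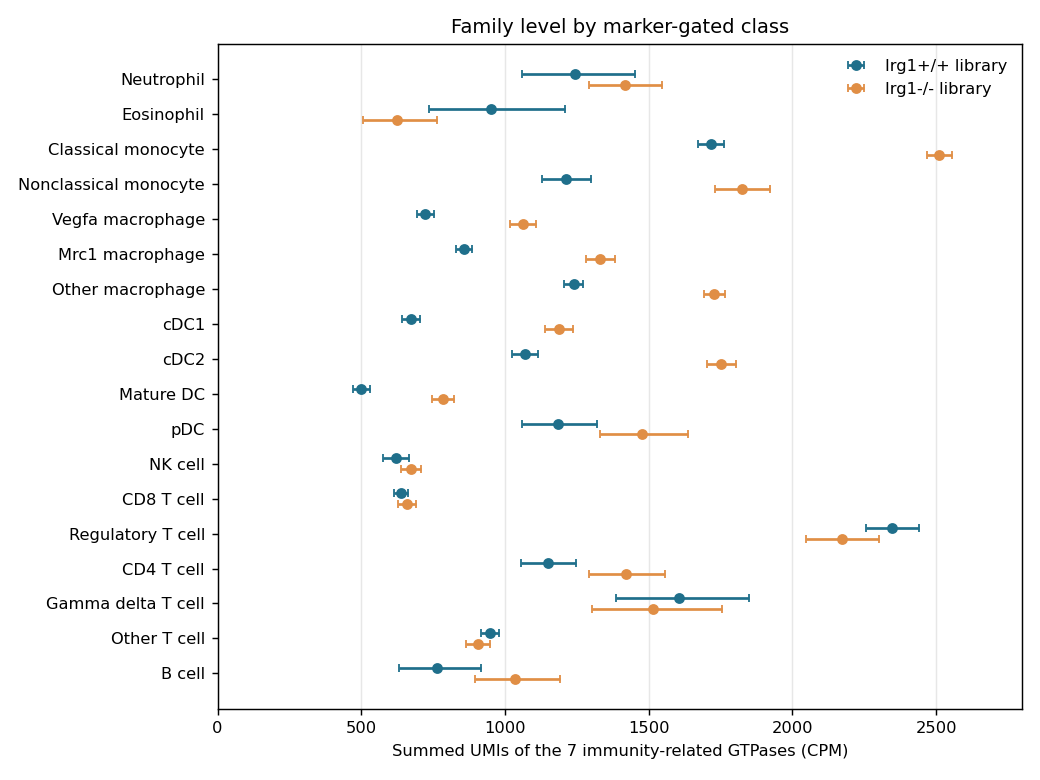
Summed level of the 7 members in CPM (x axis) in each marker-gated class (y axis), with 1 point per library and 95% Poisson intervals for counting error. In the monocyte, macrophage and conventional dendritic classes the library labelled Irg1-/- lies to the right of Irg1+/+ (classical monocytes, 1715 and 2511 CPM), while regulatory T cells stand high in both (2346 and 2171 CPM) and NK and CD8 T cells low in both.

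Single members differed in where they were high. Ifi47, an effector, was the most counted member, with 33.2% of the family's UMIs over all gated Irg1+/+ cells and 34.6% in the library labelled Irg1-/-. Irgm1 gave 19.6% and 18.1%, Igtp 16.3% and 13.8%, and Iigp1 16.1% and 19.5%. The 3 regulators together gave 42.6% of the family's UMIs in Irg1+/+ and 37.9% in the other library. Irgm1 and Ifi47 were both highest in classical monocytes, whereas Igtp and Irgm2 were highest in regulatory T cells in both libraries. Across the 36 sums of a class and a library, Irgm2 and Igtp followed each other closest (Pearson r = 0.88 on the log scale), and Irgm1 and Ifi47 came next (r = 0.70). The gene models of the first pair overlap, but few of their 3′ ends are shared: none of the 50-base words in the last 1000 bases of Irgm2 occurs in Igtp and 3.996% of those of Igtp occur in Irgm2. How the counting treated such reads was not tested. The sums share libraries, so the correlations describe the tables only.

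**Figure D2:**
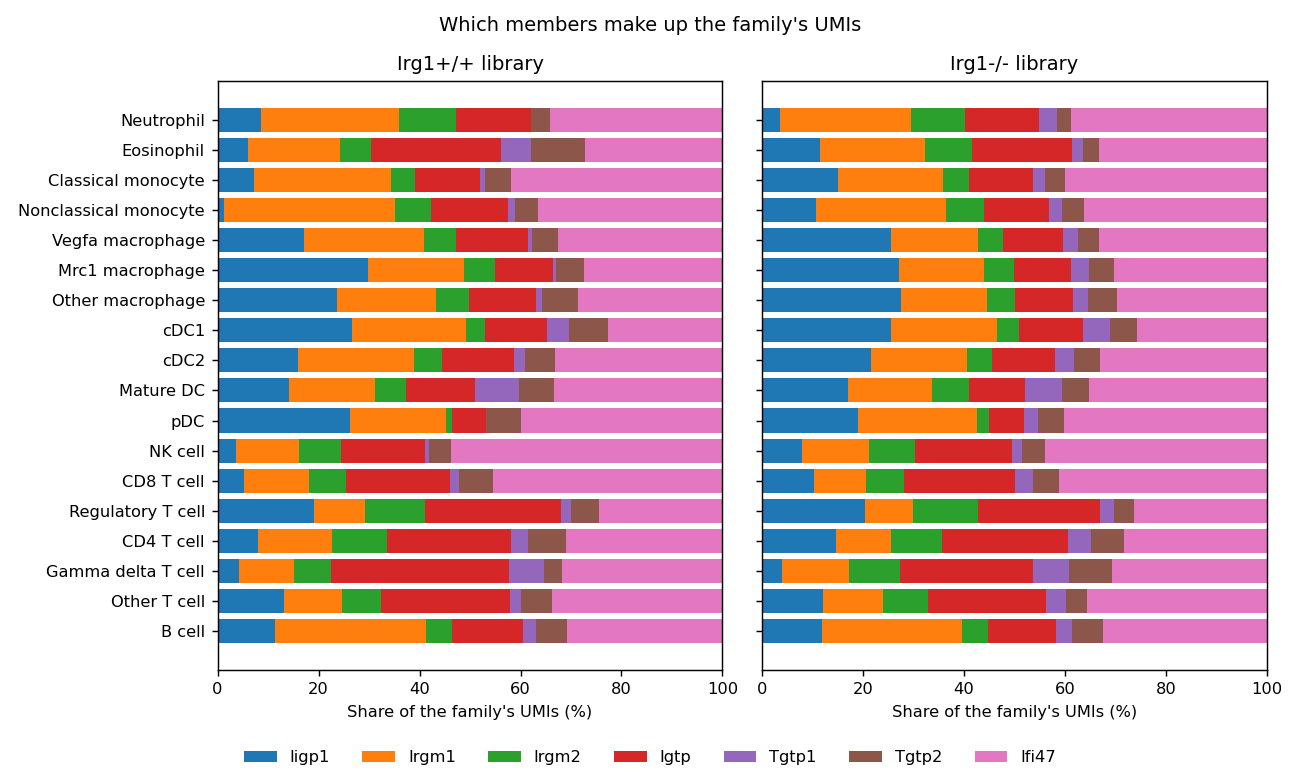
Share of the family's UMIs (x axis, percent) that each member gave in each class (y axis), with 1 panel per library. Irgm1 takes a larger part in monocytes than in T cells, Igtp a larger part in T cells, and Iigp1 nearly vanishes in nonclassical monocytes of Irg1+/+ (10 of 806 UMIs) but not in the other library (153 of 1439).

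Among the regulators, Irgm1, found on Golgi and other host membranes, ranged from 76.6 CPM in NK cells to 466 CPM in classical monocytes of Irg1+/+. In the library labelled Irg1-/- it ranged from 69.0 CPM in CD8 T cells to 519.8 CPM in classical monocytes. Its upper end was the same class in both libraries. Igtp (Irgm3) ranged from 67.9 CPM in mature dendritic cells to 633 CPM in regulatory T cells of Irg1+/+, and from 86.7 to 523 CPM in the same classes of the other library. Its second highest Irg1+/+ class was γδ T cells, at 568 CPM. Irgm2 reached 277 and 280 CPM in regulatory T cells, against 46.2 and 49.7 CPM in CD8 T cells. The 2 genes that were highest in regulatory T cells in both libraries are also those whose gene models overlap.

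Among the effectors, Iigp1 (Irga6), which lies on chromosome 18, had the widest range with a lowest class above 0. In Irg1+/+ it stood at 449 CPM (485 UMIs) in regulatory T cells, 311 CPM in plasmacytoid dendritic cells (where 5 of 48 cells held 71 of 87 UMIs) and 293 CPM in other macrophages, but at only 15.03 CPM (10 UMIs) in nonclassical monocytes and 22.9 CPM in NK cells. The highest was 29.9-fold above the lowest. In the library labelled Irg1-/- the range was narrower, from 51.7 CPM in neutrophils to 477 CPM in other macrophages, 9.23-fold. Ifi47 ranged from 152 CPM in type 1 conventional dendritic cells (cDC1) to 719 CPM in classical monocytes of Irg1+/+, and from 208 CPM in eosinophils to 1004 CPM in classical monocytes of the other library. Tgtp1 and Tgtp2, T cell-specific guanosine triphosphatases by name, had the lowest medians over classes in Irg1+/+, 19.1 and 56.5 CPM. The median of Irgm2 was close to that of Tgtp2, at 58.1 CPM. Monocytes carried them as well as T cells: the sum of both was 104 CPM in classical monocytes and 174 CPM in regulatory T cells of Irg1+/+.

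Counts of Tgtp1 and Tgtp2 cannot be parted with confidence. Their longest transcripts are 99.8% identical, and every 50-base word in the last 1000 bases of 1 occurs in the other. The Tgtp1 gene model also shares 6900 bases with that of Gm12185, on the same strand. Values of the single genes are therefore uncertain, and the sum of both is given beside them.

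The study set the genotypes side by side to ask how loss of Irg1 changes the immune cells of the tumor. The family's sum was higher in the library labelled Irg1-/- in all 8 monocyte, macrophage and conventional dendritic classes, with every interval of the ratio above 0. Ratios are given as log2 of the CPM labelled Irg1-/- over that of Irg1+/+. In cDC1 the ratio was 0.82 (0.73 to 0.91), where the sum stood at 672 and 1187 CPM. It was 0.71 (0.64 to 0.79) in cDC2, at 1069 and 1753 CPM, and 0.65 (0.54 to 0.76) in mature dendritic cells, at 499.8 and 784 CPM. Of the 8 classes, cDC1 and mature dendritic cells were also the lowest in Irg1+/+. Mrc1 macrophages (Mrc1, Cd163, Folr2) stood at 857 and 1332 CPM, a log2 ratio of 0.64 (0.56 to 0.71) that overlapped that of mature dendritic cells. Vegfa macrophages (Vegfa, Spp1) stood at 722 and 1062 CPM, a ratio of 0.56 (0.47 to 0.64) that was 0.29 as a mean over single cells. Other macrophages stood at 1239 and 1728 CPM, a ratio of 0.48 (0.43 to 0.53). The monocytes lay in the range of the macrophages. The ratio was 0.55 (0.50 to 0.60) in classical monocytes (Vcan, Ly6c2), at 1715 and 2511 CPM, and 0.59 (0.47 to 0.72) in nonclassical monocytes (Ace, Treml4), at 1211 and 1825 CPM. Leaving Tgtp1 out gave 8 ratios between 0.45 and 0.80, all with intervals above 0.

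T and NK classes lay lower. Of these 6, only CD4 T cells had an interval above 0, with 1149 and 1420 CPM and a log2 ratio of 0.31 (0.12 to 0.49). NK cells gave 0.12 (-0.01 to 0.25), CD8 T cells 0.05 (-0.04 to 0.14), γδ T cells -0.08 (-0.38 to 0.22) and other T cells -0.07 (-0.15 to 0.01). Regulatory T cells gave -0.11 (-0.21 to -0.01), which turned to 0.033 when cells were thinned to equal depth. The 6 ratios lay between -0.11 and 0.31 and the 8 above between 0.48 and 0.82, so the main values of these classes did not overlap. Neutrophils, eosinophils, plasmacytoid dendritic cells and B cells, given below, were placed in neither group. Their ratios, 0.18, -0.61, 0.32 and 0.44, all lay below those of the 8. The split therefore does not part all myeloid from all lymphoid classes. The interval of CD4 T cells did overlap those of other macrophages, Vegfa macrophages and nonclassical monocytes. The mean over single cells put Vegfa macrophages at 0.29, below the CD4 T cell value. That split was seen in these 2 libraries and the difference between the groups was not tested.

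The small classes were less certain. Neutrophils, with 63 and 175 cells, stood at 1243 and 1416 CPM, a log2 ratio of 0.18 (-0.07 to 0.45). The cells named eosinophils were gated by a list with Ccr3, Siglecf and Retnlg. The study uses Retnlg to mark neutrophils, so the name is tentative. Eosinophils, with 76 and 111 cells and 66 and 96 UMIs of the family, stood at 950 and 625 CPM. They were the only class with a ratio well below 0, -0.61 (-1.07 to -0.13). Plasmacytoid dendritic cells stood at 1184 and 1477 CPM (0.32, 0.10 to 0.54) and B cells at 764 and 1036 CPM (0.44, 0.10 to 0.79). Cells left out of the classes were also higher in the library labelled Irg1-/-: those that met no gate, 1116 and 730 cells, stood at 922 and 1721 CPM, and those that met several gates, 159 and 172 cells, at 901 and 1213 CPM.

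Counted member by member, all 7 were higher in the library labelled Irg1-/- in each of the 8 monocyte, macrophage and conventional dendritic classes, and 27 of 56 pairs of a member and a class reached 1.5-fold. Over all genes with at least 20 UMIs in a class, 6.07% of 75328 pairs did, and 8.14% were as much lower, against 0 of the members' pairs. In T and NK cells 8 of 41 pairs of a member and a class reached it and 1 was as much lower, against 5.96% of all pairs higher and 9.37% lower. Of these 8 pairs, 4 were of Tgtp1, 3 of Iigp1 and 1 of Tgtp2, and the lower pair was of Tgtp2. The sum of Tgtp1 and Tgtp2, whose split is uncertain, reached 1.5-fold in 6 of the 8 monocyte, macrophage and conventional dendritic classes. It did so in 0 of the 6 T and NK classes. Since the 7 genes were selected on values from these libraries, the counts stand beside the background as a description. The class with most members past 1.5-fold was cDC1, with 6 of 7 (5.99% of all genes tested). Mature dendritic cells had 4 of 7 (6.2%). Classical monocytes had 3 of 7 (5.33%), as did nonclassical monocytes (7.51%), Vegfa macrophages (5.52%), Mrc1 macrophages (8.4%) and cDC2 (6.67%). Other macrophages had 2 of 7 (3.53%). NK cells had 2 of 7 (5.57%) and CD8 T cells 2 of 7 (3.94%), in both Iigp1 and Tgtp1. CD4 T cells had 2 of 7 (7.72%), γδ T cells 1 of 6 (12.8%), other T cells 1 of 7 (4.17%) and regulatory T cells 0 of 7 (7.7%). The median over all genes in these classes lay between -0.06 and 0.02, beside medians over the members between -0.02 and 0.86.

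**Figure D3:**
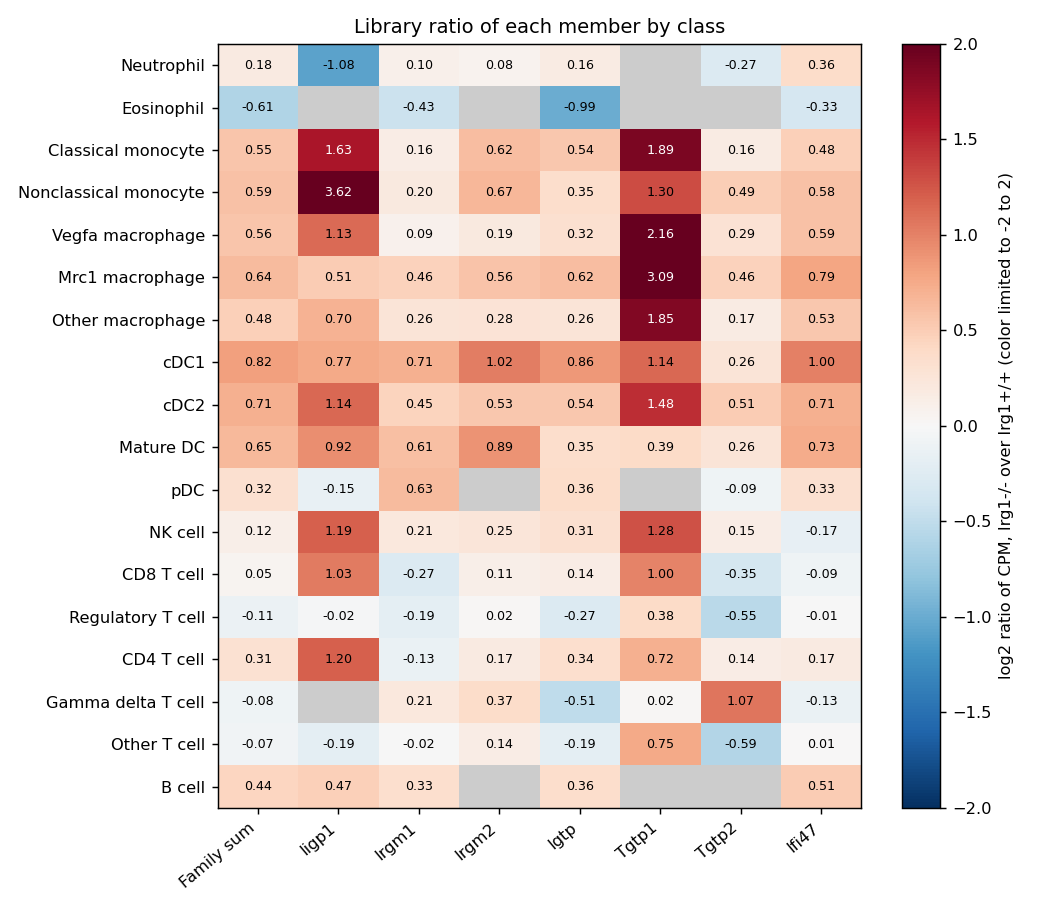
Log2 ratio of CPM in the library labelled Irg1-/- over Irg1+/+ (color and printed value) for the family sum and each member (x axis) in each class (y axis), with gray for fewer than 20 UMIs over both libraries. Red fills the monocyte, macrophage and conventional dendritic rows across all members. It is darkest for Iigp1 and Tgtp1, with exceptions. Iigp1 is paler than Ifi47, Igtp and Irgm2 in cDC1 and Mrc1 macrophages. In mature dendritic cells Tgtp1 is paler than Iigp1, Irgm2, Ifi47 and Irgm1. T cell rows are mixed, and regulatory T cells are near 0 or below for all members but Tgtp1.

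Members differed in the size of the gap. Iigp1 reached 1.5-fold in 7 of the 8 myeloid classes named above, Tgtp1 in 7, Ifi47 in 5, Irgm2 in 4, Irgm1 in 2, Igtp in 2 and Tgtp2 in none. The median log2 ratio over those classes was 1.66 for Tgtp1, 1.03 for Iigp1, 0.65 for Ifi47, 0.59 for Irgm2, 0.45 for Igtp, 0.36 for Irgm1 and 0.28 for Tgtp2. For the sum of Tgtp1 and Tgtp2 it was 0.70. Ifi47 and Irgm2 lay close, and no difference between effectors and regulators was tested. The regulators' share of the family's UMIs over all gated cells was lower in the library labelled Irg1-/-, as given above, and so it was in classical monocytes, at 44.9% and 38.5%. In cDC1 it was 38.7% and 37.9% and in NK cells it was 37.4% and 41.5%, with overlapping intervals in both classes.

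Among pairs of a member and a class with at least 20 UMIs over both libraries, Iigp1 in nonclassical monocytes had the largest log2 ratio. Its interval overlapped that of Tgtp1 in Mrc1 macrophages (3.09, 2.43 to 3.86). Iigp1 in nonclassical monocytes was at 15.03 CPM in Irg1+/+ (10 UMIs in 8 of 160 cells) and at 194 CPM in the library labelled Irg1-/- (153 UMIs in 43 of 160 cells), a log2 ratio of 3.62 (2.77 to 4.78). These UMIs were unevenly spread, and in the second library 5 cells held 48.4% of them, with up to 22 in a cell. The counting interval takes UMIs as independent and is too narrow for such a spread. As a mean over single cells the ratio was 2.65. In classical monocytes Iigp1 stood at 123 CPM (121 of 646 cells) and 381 CPM (367 of 925 cells), a log2 ratio of 1.63 (1.47 to 1.79), and the 5 highest cells held 20.98% and 8.07% of its UMIs. The UMIs were spread over more cells here, in a class that is itself larger.

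In cDC2 Iigp1 stood at 171 and 377 CPM (1.14, 0.97 to 1.32) and in Vegfa macrophages at 124 and 272 CPM (1.13, 0.94 to 1.32). In the Vegfa class 1 cell of the library labelled Irg1-/- held 130 of its 515 UMIs, and the ratio was 0.48 as a mean over single cells. The smallest ratio of the 8 classes was in Mrc1 macrophages, at 256 and 363 CPM (0.51, 0.37 to 0.64). There 1 cell of Irg1+/+ held 129 of its 1052 UMIs, and the ratio was 0.73 as a mean over single cells. Lymphocytes were split for this member. NK cells stood at 22.9 and 53.1 CPM (1.19, 0.59 to 1.89), CD8 T cells at 33.0 and 67.4 CPM (1.03, 0.70 to 1.37) and CD4 T cells at 90.9 and 209 CPM (1.20, 0.64 to 1.79). These lymphocyte UMIs were few and clumped: in the library labelled Irg1-/- 1 NK cell held 32 of 113 and 5 CD4 T cells held 64.7% of 68. Regulatory T cells stood at 449 and 442 CPM (-0.02, -0.26 to 0.21), the highest lymphocyte level in both libraries and without a gap between them. Other T cells, with 491 and 225 UMIs of Iigp1, stood at 125 and 110 CPM (-0.19, -0.42 to 0.04). B cells stood at 87.1 and 123 CPM (0.47, -0.55 to 1.60), and γδ T cells held only 8 and 7 UMIs. Neutrophils stood at 108 and 51.7 CPM, and all 14 UMIs of the Irg1+/+ library came from 1 cell.

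Ifi47 had its largest ratio in cDC1, at 152 and 306 CPM (1.00, 0.82 to 1.19), and its smallest of the 8 classes in classical monocytes, at 719 and 1004 CPM (0.48, 0.41 to 0.55). In NK cells, where it was the most counted member, it stood at 333 and 295 CPM (-0.17, -0.36 to 0.02). Of the regulators, Irgm2 stood at 25.6 and 51.9 CPM in cDC1 (1.02, 0.57 to 1.48), Igtp at 82.5 and 149.9 CPM (0.86, 0.61 to 1.12) and Irgm1 at 152 and 248 CPM (0.71, 0.52 to 0.90). All 3 regulators were thus past 1.5-fold in cDC1. In classical monocytes Irgm1 stood at 466 and 519.8 CPM (0.16, 0.06 to 0.25), beside the 1.63 of Iigp1. Igtp in regulatory T cells stood at 633 and 523 CPM (-0.27, -0.48 to -0.07).

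Tgtp1 alone stood at 16.2 and 60.4 CPM in classical monocytes (1.89, 1.48 to 2.34) and at 5.34 and 46.4 CPM in Mrc1 macrophages (3.09, 2.43 to 3.86). Tgtp2 alone stood at 87.7 and 98.0 CPM (0.16, -0.05 to 0.37) and at 47.9 and 65.9 CPM (0.46, 0.13 to 0.79) in these classes. Given how alike the transcripts are, the sum is the safer reading. Tgtp1 and Tgtp2 together stood at 104 and 158 CPM in classical monocytes (0.61, 0.42 to 0.80) and at 53.2 and 112 CPM in Mrc1 macrophages (1.08, 0.80 to 1.36), and the interval was above 0 in all 8 classes. In mature dendritic cells the ratios of the single genes, 0.39 and 0.26, overlapped in their intervals. In neutrophils and plasmacytoid dendritic cells Tgtp1 had 0 UMIs in Irg1+/+ and 17 and 10 in the other library.

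**Figure D4:**
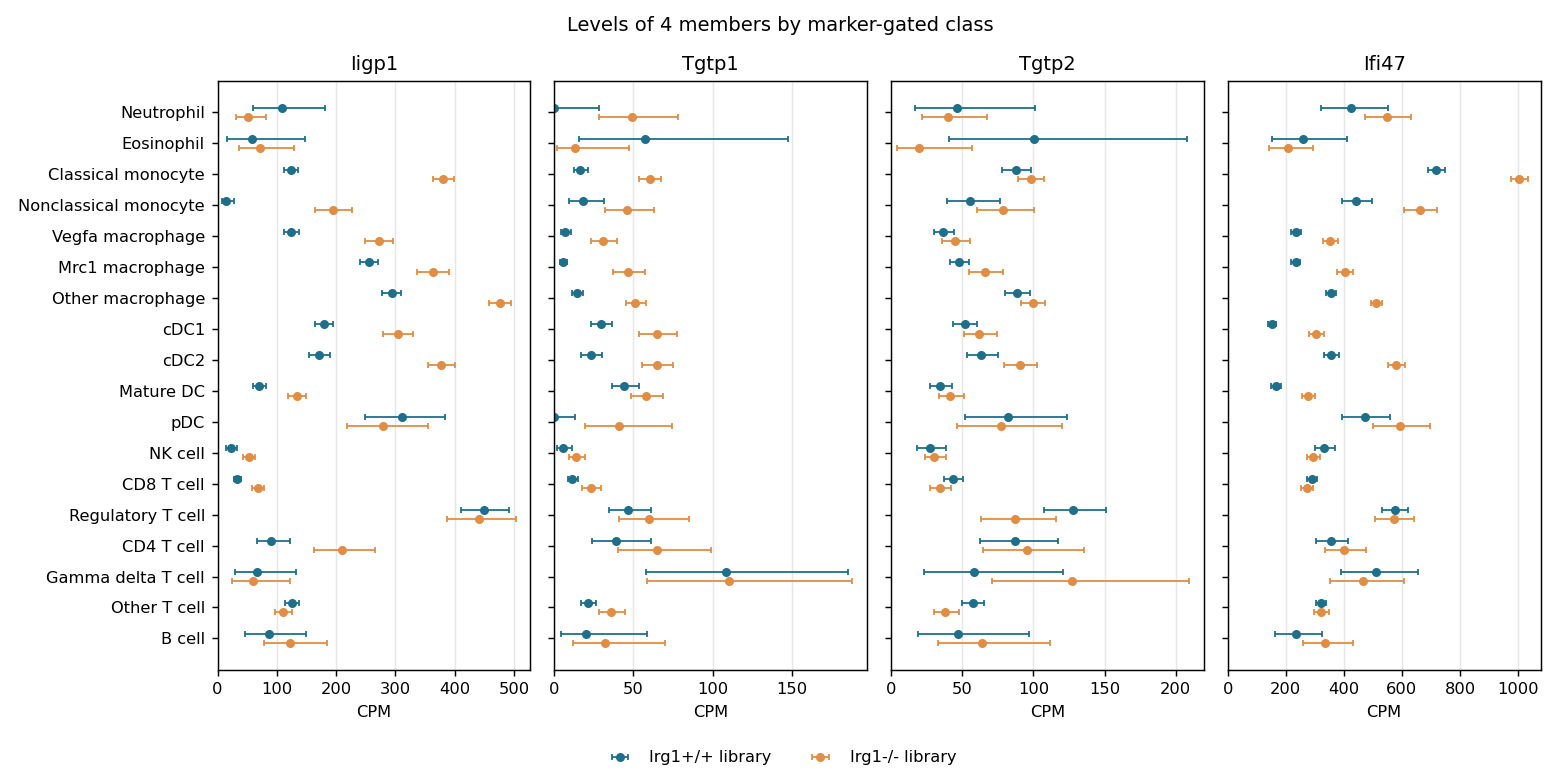
Level of Iigp1, Tgtp1, Tgtp2 and Ifi47 (x axes, CPM, each panel with its own scale from 0) by class (y axis) and library, with 95% Poisson intervals. Iigp1 is near 0 in nonclassical monocytes of Irg1+/+ (15.03 CPM) and not in the other library (194 CPM), Ifi47 peaks in classical monocytes of both (719 and 1004 CPM), and the gap in Tgtp1 is not matched in Tgtp2.

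The share of cells with a UMI was compared next. To remove depth, each cell was thinned to 2000 UMIs and shallower cells were left out (60 of 646 and 95 of 925 classical monocytes). Of the thinned classical monocytes, 79.5% (76.0 to 82.7) in Irg1+/+ and 89.6% (87.4 to 91.6) in the library labelled Irg1-/- had a UMI of any member, where the unthinned shares were 91.0% and 94.5%. In cDC2 the thinned shares were 63.9% (57.3 to 70.1) and 82.6% (77.9 to 86.6), from 85.5% and 94.6% unthinned. CD8 T cells gave 65.8% (61.3 to 70.1) and 68.5% (62.4 to 74.2), and NK cells 63.0% (57.1 to 68.8) and 61.2% (56.9 to 65.4). For Iigp1 the thinned share was 1.45% (0.18 to 5.14) in nonclassical monocytes and 2.54% (1.03 to 5.16) in NK cells of Irg1+/+, from 5.00% and 5.90% at medians of 3902.5 and 2698 UMIs before thinning. No class was known to lack the family, and the lowest thinned share of any member among classes with at least 20 such cells was 42.4%, in mature dendritic cells of Irg1+/+. The part of free RNA in the low shares of Iigp1 was therefore not tested.

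Several members were often met in the same cell. At 2000 UMIs a classical monocyte had a UMI of 1.84 members on average in Irg1+/+ and 2.43 in the library labelled Irg1-/-, and 31.1% and 44.5% of these cells had 3 or more. Regulatory T cells had 2.69 and 2.60 members on average, and 52.5% and 45.3% of them had 3 or more. Mature dendritic cells had 0.721 and 1.04. Counts per cell are sparse, and these shares also depend on the level of the sum.

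**Figure D5:**
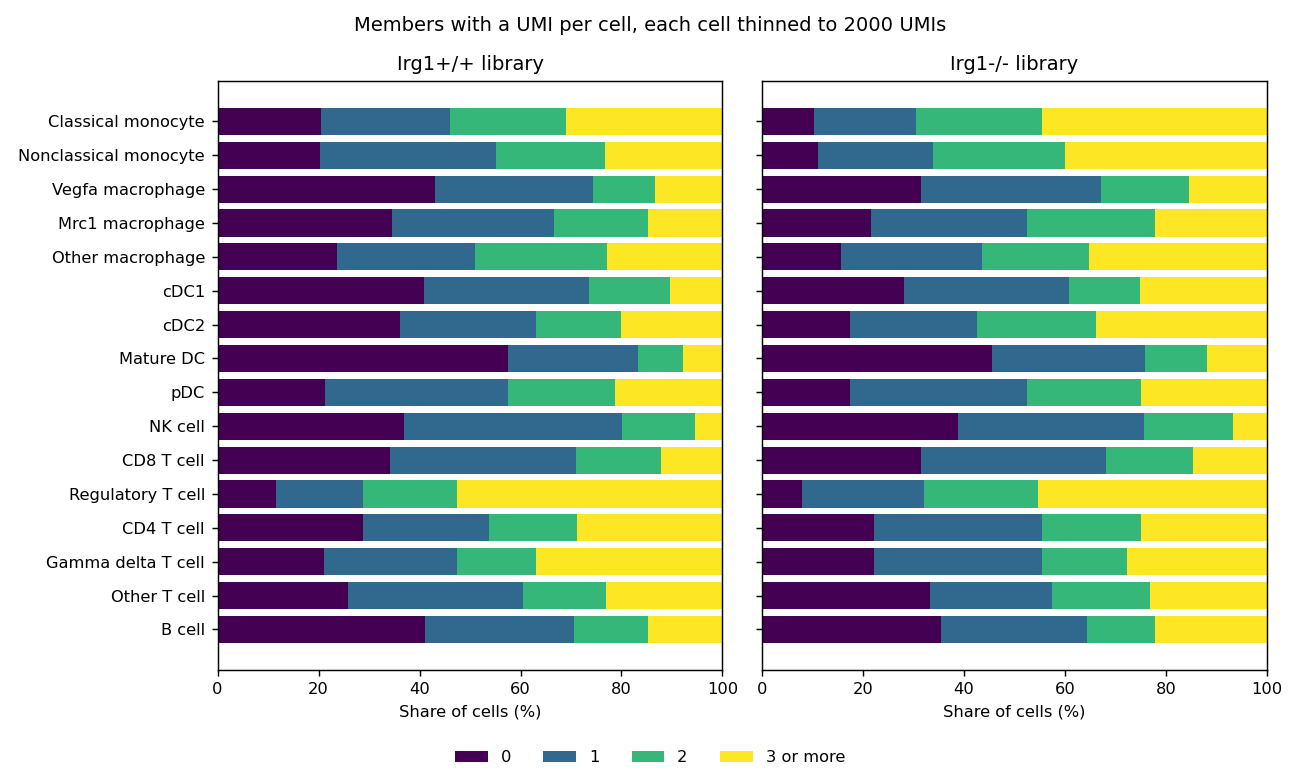
Share of cells (x axis, percent) with a UMI of 0, 1, 2 or at least 3 members (color) in each class with at least 20 cells of 2000 UMIs or more in both libraries, with 1 panel per library. Regulatory T cells have the largest part with 3 or more in both panels (52.5% and 45.3%), and the part with none is smaller for the library labelled Irg1-/- in classical monocytes (20.5% and 10.4%) and cDC2 (36.1% and 17.4%).

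Classical monocytes hold cells with and without the chemokines Cxcl9 and Cxcl10, which interferon gamma induces. At 2000 UMIs, 54.3% of them in Irg1+/+ and 60.5% in the library labelled Irg1-/- had a UMI of either. With the chemokines the family stood at 2382 and 3098 CPM (log2 ratio 0.38, 0.29 to 0.47), and without them at 987 and 1645 CPM (0.74, 0.59 to 0.89). The family was thus higher in the library labelled Irg1-/- on both sides of the split.

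Of 10 other immunity-related GTPase genes listed by symbol, 9 were in the tables. Over the 8 monocyte, macrophage and conventional dendritic classes 30 of their 55 pairs with at least 20 UMIs were at least 1.5-fold higher and 3 lower, against 6.07% higher and 8.14% lower over all pairs. Gm4951, a neighbor of Iigp1 on chromosome 18, stood at 11.1 and 40.2 CPM in classical monocytes (log2 ratio 1.84, 1.34 to 2.40) and at 15.3 and 46.6 CPM in cDC1 (1.60, 1.07 to 2.16). Gm12185, whose window also held the GAS and ISRE letters in 1 run, stood at 6.13 and 21.4 CPM in cDC1 (1.78, 0.97 to 2.69). Relatives differed: 9930111J21Rik2 stood at 95.8 and 96.8 CPM in classical monocytes (0.01, -0.19 to 0.22), and Irgq, a relative not known to answer interferon, at 6.01 and 5.25 CPM. In T and NK classes 6 of 24 pairs of these relatives were at least 1.5-fold higher and 8 lower, against 5.96% higher and 9.37% lower over all pairs.

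Genes of the pathway around the family were counted from lists. In the 8 classes the guanylate-binding proteins, which act beside the family on microbial vacuoles, had 16 of 61 pairs at least 1.5-fold higher and 1 lower. Gbp5 stood at 47.7 and 108 CPM in cDC1 (1.18, with a lower bound of 0.86) and at 220.4 and 316 CPM in classical monocytes (0.52, 0.39 to 0.65). Of the receptor chains of interferon gamma, Ifngr1 ranged over the 8 classes from nonclassical monocytes, at 694 and 540.1 CPM (-0.36, -0.56 to -0.17), to Mrc1 macrophages, at 138 and 228 CPM (0.72, 0.54 to 0.91). Ifngr2 ranged from cDC1, at 133 and 119 CPM (-0.16, -0.40 to 0.08), to Mrc1 macrophages, at 145 and 175 CPM (0.27, 0.08 to 0.47). Irf1, a transcription factor that binds ISRE letters, stood at 306 and 631 CPM in cDC1 (1.05, 0.92 to 1.17) and at 846 and 1035 CPM in classical monocytes (0.29, 0.22 to 0.36). Ifngr1, Ifngr2 and Irf1 are single genes of the interferon gamma path and do not stand for its list, whose counts are not given. The type I interferon path had 13 of 48 pairs higher and 2 lower, among them Irf7 in classical monocytes at 275 and 492 CPM (0.84, 0.73 to 0.95). Responders taken as type II (Cxcl9, Cxcl10, Ciita, Irf1, Socs1) had 16 of 40 higher and 2 lower, and those taken as type I (Isg15, Ifit1, Ifit3, Rsad2, Oasl2) 13 of 40 higher and 4 lower. Over all pairs 6.07% were higher and 8.14% lower.

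The conjugation machinery that places effectors on vacuoles showed little difference. Of its 10 genes, 2 of 80 pairs were at least 1.5-fold higher and 1 lower, and the medians per class lay between -0.15 and 0.04. In T and NK classes it had 0 of 51 higher and 1 lower, the guanylate-binding proteins 1 of 45 higher and 1 lower, the type I path 7 of 34 higher and 2 lower, the type I responders 11 of 26 higher and 4 lower, and the type II responders 7 of 28 higher and 0 lower. Over all pairs there 5.96% were higher and 9.37% lower.

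Outside these lists, the 10 genes whose level followed the family sum closest over the 36 sums of a class and a library were Parp14 (r = 0.71), 1600014C10Rik, Slfn8, Gpr146, Xaf1, Rnf213, Irf2, Ly6e, Ifi27l2a and Trim30a (r = 0.64), out of 7285 genes with at least 1000 UMIs. Parp14, Xaf1, Rnf213, Ly6e, Ifi27l2a and Trim30a are known as interferon-induced genes, and Irf2 binds ISRE letters. All 36 sums come from 2 libraries, so r is given as a description.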

How the data were processed

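Cd45+ cells were captured on the BD Rhapsody system. The authors trimmed reads with fastp, found barcodes with UMI-tools and mapped with STAR to the mouse genome (Ensembl annotation; GRCm38 and CASAVA 1.8 per the labels), and deposited raw UMI counts per gene and cell, with no strand setting given in the sources used here. From these deposited counts, barcodes with more than 200 genes whose mitochondrial share stayed below 10% entered the sums, which leave out mitochondrial genes. The 7 members, the gene lists and the classes were chosen with earlier results of these data known, and the named genes are the members, the listed genes and the 10 nearest by correlation of log2(CPM + 1). Marker UMIs per 10000 UMIs gated the classes, and thresholds were set on marker levels after these had been seen. Macrophages with Vegfa list genes at 30 or Mrc1 list genes at 10 per 10000 were named for them, and γδ T cells rest on Trdc. UMIs were summed per class and library. With 1 library per genotype no test was made. Levels are CPM with exact Poisson intervals, log2 ratios use a pseudocount of 0.5 UMIs with an exact interval from the binomial split, and shares have Clopper-Pearson intervals. Members under 20 UMIs over both libraries are not counted in ratios. Scrublet called 0 doublets in either library, so its calls removed no cell, and cells that met gates of several lineages were left out instead. Whether doublets were truly absent was not tested. Alternatives were another scaling (TMM, edgeR 4.0.16), filters, thinning to 2000 UMIs, clusters (scanpy 1.11.5) and stricter gates. Gene positions come from GENCODE on GRCm38, in which 31107 of 31253 identifiers were found. The functions for ratios and intervals were tested on simulated data. No column of per-sample values was left unused. The counts of a list of the interferon gamma path, and single values of some listed genes, are not reported here.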

Additional observations from a re-analysis of the deposited data

Results flagged for a closer look

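The family's log2 ratio of the library labelled Irg1-/- over Irg1+/+ was 0.82 in cDC1 and -0.61 in eosinophils, opposite directions in classes of the same pair of libraries, each past 1.5-fold with a counting interval clear of 0. The difference between the classes was not tested. The eosinophil value rests on 66 and 96 UMIs from 76 and 111 shallow cells, of which 2 and 7 held 2000 UMIs or more. That class had no cluster of its own, and its name rests on the marker gate alone.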

How the results depend on the processing

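With 1 library per genotype there is no replicate, and no paired analysis was possible because the groups share fewer than 2 replicate numbers. The family's log2 ratio stayed above 0 under every alternative run in all 8 monocyte, macrophage and conventional dendritic classes, between 0.29 and 0.87. It left the counting interval of the main value in these cases, whose cause was not tested. As a mean over cells it was 0.39 in nonclassical monocytes, 0.29 in Vegfa macrophages, -0.074 in NK cells and 0.80 in B cells. Thinned, it was 0.41 in Vegfa macrophages, 0.74 in Mrc1 macrophages, -0.26 in other T cells and, reversed, 0.033 in regulatory T cells. From clusters it was 0.62 in classical monocytes, 0.42 in Vegfa macrophages, 0.55 in cDC2, 0.76 in mature dendritic cells, -0.041 in NK cells and, reversed, 0.056 in regulatory T cells. With mitochondrial UMIs under 5% it was -0.045 in CD8 T cells, and without the top 5% of doublet scores -0.17 in other T cells. Among cells at least 25% over their gate, an alternative chosen after seeing the data, it was 0.66 in Vegfa macrophages and 0.73 in cDC1. Of the ratios of single members, 12 of 115 left their interval as a mean over cells, 18 of 97 when thinned and 14 of 91 from clusters. Without the top 5% of doublet scores 1 of 114 did. In addition, Irgm1 in CD8 T cells reversed, to 0.20, when thinned. TMM moved no value out of its interval. Pairs of a member and a T or NK class past 1.5-fold numbered 8 of 41, and 5 of 28 from clusters. Clusters gave no nonclassical monocyte, eosinophil, CD4 T or other T class. Of the kept cells, 10.0% lie from 20% under to 25% over their gate. Depth limits the small classes: in neutrophils, eosinophils, plasmacytoid dendritic, γδ T and B cells at least 1 member had under 20 UMIs.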
